A study of Homo sapiens with 20 samples.

Results

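The mitochondrial ribosomal proteins are described here in MCF 10A cells transfected with a miRNA mimic. Members were all genes whose symbol is MRPL or MRPS followed by digits, with an optional letter at the end. By this rule 77 of the 18665 gene symbols on the array of the miR-4728-3p experiment were members, with 110 of its 48803 probes, and 76 of the 20046 gene symbols on the array of the miR-1 experiment, with 110 of its 47323 probes. MRPL27 was the gene without a probe in the annotation of the miR-1 array. The rule used no measured value. MRPL11 is a predicted target of miR-4728-3p, and the question put to the data was whether other members changed with it.

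MCF 10A cells are human breast epithelial cells that grow without limit and do not form tumours. In the first experiment RNA came from 6 samples that had received a miR-4728-3p mimic and from 6 given a non-targeting siRNA, and in the second from 4 samples transfected with the miR-1 mimic and 4 given the non-targeting control. A mimic is a synthetic small RNA that acts as the mature miRNA. All oligonucleotides were delivered with a lipid reagent, at 100 nM according to the labels. The study describes a single time after transfection for its arrays, so early and later changes cannot be told apart here. The methods also list a control oligonucleotide of the same length as the customized miR-4728-3p mimic, and which control a sample received is taken here from the labels. The labels name 1 version of the Illumina HumanHT-12 array for all samples, and the methods name a later version for the miR-1 experiment. The deposited values are filed under a different platform for each experiment, as the methods have it. Each experiment was therefore compared only with its own controls. No source says whether replicates were grown apart beyond calling them biological, and all samples are of 1 cell line.

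The mitochondrial ribosome makes the few proteins that are encoded by mitochondrial DNA, all of them core subunits of the respiratory chain and of ATP synthase. Its protein components are encoded in the nucleus, made in the cytosol and imported, and they assemble on mitochondrial rRNAs into a large subunit, which forms peptide bonds, and a small subunit, which decodes the mRNA. Part of these proteins belong to families that bacterial ribosomes share, and others occur only in mitochondria. Of the 77 members, 51 belong to the large and 26 to the small subunit, and 48 have a bacterial family while 29 are specific to mitochondria. MRPS30 and MRPS18A carry small-subunit names but are counted with the large subunit, where they reside.

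The study assigned miR-4728-3p a pairing region that is shifted along the miRNA. Its sequence is shown because MRPL11 is the only member among the targets the study predicted from that shifted region. The study's list counts conserved sites, so a member absent from it may still carry a matching site. The study found the word that matches this region among genes lowered on these same arrays. The prediction of MRPL11 is therefore not independent of the values below. The capitals mark bases 2 to 8, the canonical seed, in the first line, and bases 6 to 12, the internal seed, in the second. The third line gives miR-1, the comparison miRNA, with its canonical seed in capitals. Sequences are from RefSeq (GRCh38.p14), where mature miR-4728-3p lies at chr17:39726537-39726561 on the plus strand, from MIR4728, and mature miR-1 at chr20:62554351-62554372 on the plus strand, from MIR1-1, with a second copy from MIR1-2 at chr18:21829015-21829036 on the minus strand.
miR-4728-3p, canonical seed: cAUGCUGAccucccuccugccccag
miR-4728-3p, internal seed: caugcUGACCUCccuccugccccag
miR-1-3p, canonical seed: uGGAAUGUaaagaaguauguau
Read 5′ to 3′, an mRNA pairs with the canonical seed of miR-4728-3p through UCAGCAU. Its partner for the internal seed is the word GAGGUCA. The canonical seed of miR-1 has the partner ACAUUCC, which differs from both. Transcript sequences were not searched for these words here.

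Values below are log2 intensities after background correction and quantile normalization within an experiment. A change is the mean of the mimic arrays minus that of the control arrays on this scale, tested with limma over all tested probes, and a gene was called at an adjusted p under 0.05. Each gene was represented by whichever of its tested probes was brightest on average. Probes had to have a mean above 6.36 in the miR-4728-3p experiment and 6.17 in the miR-1 experiment, the median of all values. All 77 members passed this limit with at least 1 probe in the first experiment (107 of their 110 probes) and all 76 in the second (106 of 110 probes), so no member was lost to it.

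Raw medians per array were 113 to 134 in miR-4728-3p mimic arrays and 101 to 135 in their controls, and 107 to 121 in miR-1 mimic arrays and 92 to 114 in their controls. Of the 7 breast epithelial markers fixed for this check, 5 were on the arrays and all 5 were tested, among them KRT5 and KRT14. Of 10 markers of other cell types, CD14 and PECAM1 alone passed the limit on intensity. CD14 was well above this limit, at percentile 94.0 of probes in the miR-4728-3p experiment and 92.7 in the miR-1 experiment. ITGB4, the dimmest epithelial marker tested, was at 94.4 and 88.2, and PECAM1 was at 73.7 and 67.2. The level of CD14 therefore does not set it apart from the epithelial markers, and its source was not tested. In the miR-4728-3p experiment 449 of 11820 genes were lower and 466 higher with the mimic, against 145 and 433 when arrays were centred on their medians instead of quantile normalized. In the miR-1 experiment 147 of 11899 were lower and 173 higher, against 20 and 76. All 19 tested genes of an interferon response list were higher with the miR-4728-3p mimic, with log2 fold changes of 2.36 to 6.29. Their mean level was 11.92 to 12.77 over the mimic arrays and 7.406 to 7.996 over the control arrays. The part of this response in the values of the mitochondrial ribosomal proteins was not tested. In bulk RNA, fewer cells and less RNA per cell cannot be told apart.

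MRPL11 had the largest change of the family. It is the mitochondrial member of the L11 family, which sits where translation factors bind the large subunit. Its level was 9.46 to 10.03 (median 9.76) in the 6 miR-4728-3p mimic arrays and 10.89 to 11.41 (median 11.08) in the 6 control arrays, so that the highest mimic array lay below the lowest control array. The mean was 9.75 ± 0.26 with the mimic and 11.11 ± 0.20 in the control (SD, n = 6 each). The log2 fold change was -1.35 (SE 0.12, limma adjusted p = 1.69e-08), with a 95% confidence interval of -1.61 to -1.10. The mimic arrays thus held 0.391 of the control level, and the change ranked 3 among the decreases of 11820 genes.

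The second MRPL11 probe, ILMN_1690371, gave a like decrease and the third did not. ILMN_1690371 measured 9.47 to 9.88 (median 9.75) in the mimic arrays and 10.68 to 10.95 (median 10.85) in the control arrays, a log2 fold change of -1.13 (SE 0.10, limma adjusted p = 8.01e-09). These groups did not overlap either. The third probe, ILMN_1676458, is dim, with 6.20 to 6.98 (median 6.63) in the mimic arrays and 6.41 to 7.27 (median 6.89) in the control arrays. Its groups overlapped, and its log2 fold change of -0.28 (SE 0.14, limma adjusted p = 0.325) was not called. The annotation assigns this probe to another transcript variant than the brightest one, and what the dim probe's smaller value reflects was not tested. Among the 23 members with several tested probes MRPL11 had the widest gap between its probes, 1.07 on the log2 scale, against a median gap of 0.11.

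**Figure D1:**
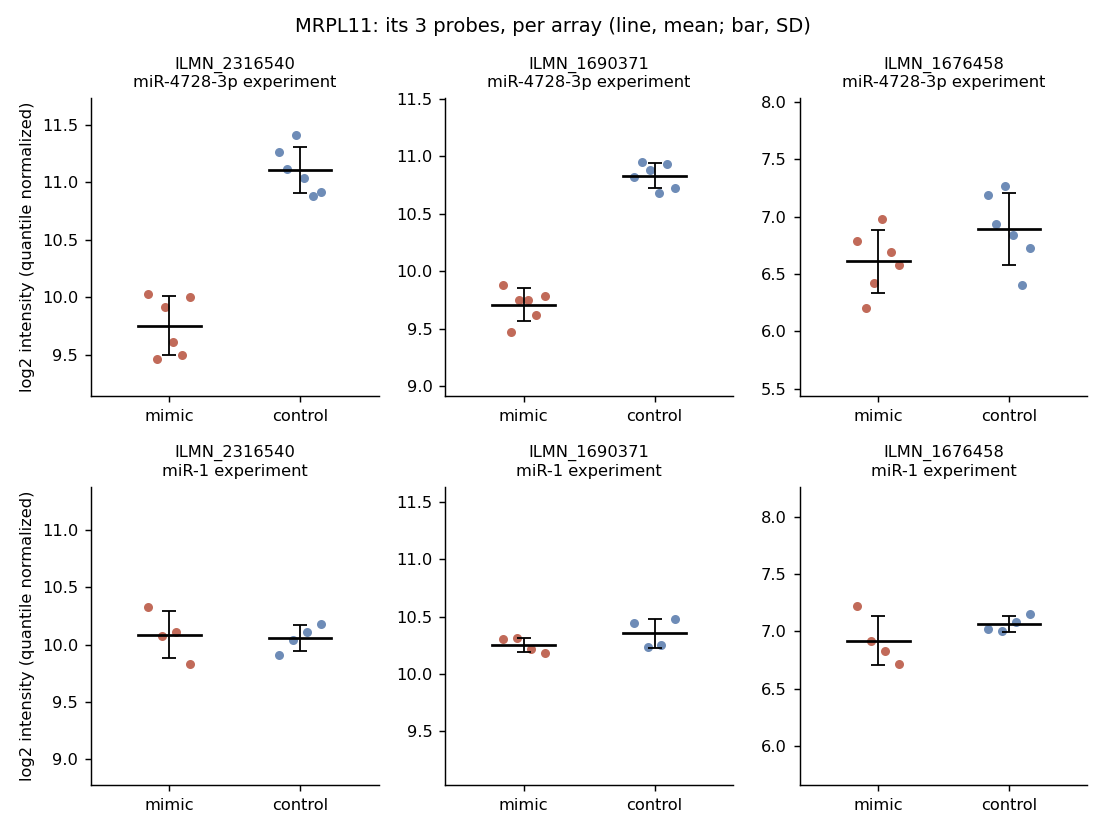
Log2 intensity of the 3 MRPL11 probes per array, with the miR-4728-3p experiment on top and the miR-1 experiment below, mimic arrays left of control arrays, with the mean (line) and SD (bar). ILMN_2316540 and ILMN_1690371 fell by 1.35 and 1.13 (log2) after miR-4728-3p transfection, with no overlap, and no probe was called with miR-1.

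Beside MRPL11, 3 members fell and 1 rose with the miR-4728-3p mimic, and 72 of 77 were not called. The 4 lowered members compare with 3.8% of all tested genes called lower, and the 1 raised member with 3.94% called higher. Without adjustment, p was under 0.05 for 8 of the 77 members on the lower side and 3 on the higher side, against 11.2% and 8.1% of all tested genes. The other lowered genes were MRPS35, MRPS16 and MRPL34, each measured by 1 tested probe, as was the raised gene, MRPL17. Groups were separate, with every mimic array below every control array, in 3 members (MRPL11, MRPS35 and MRPS26), against 2.64% of all genes, and no member had every mimic array above every control array, against 2.94% of all genes.

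In the large subunit, MRPL34, of a small bacterial ribosomal protein family, was lowered. Its level was 9.44 to 10.13 (median 9.95) in the mimic arrays and 10.02 to 10.39 (median 10.31) in the control arrays. In 5 of the 6 mimic arrays it was below the lowest control array, and the remaining mimic array fell inside the control range. The log2 fold change was -0.43 (SE 0.12, limma adjusted p = 0.0277). The call was lost without mimic replicate 2 or 5 or control replicate 1, 3, 4 or 5, with an adjusted p of up to 0.0874, with an offset of 16 in the background correction (limma adjusted p = 0.0687), and with median centring, where the log2 fold change was -0.35 (limma adjusted p = 0.206).

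MRPL17, of the bacterial L17 family, moved the other way. It measured 12.19 to 12.46 (median 12.40) in the mimic arrays and 11.86 to 12.21 (median 12.06) in the control arrays, and 5 of the 6 mimic arrays lay above the highest control array. The log2 fold change was 0.33 (SE 0.09, limma adjusted p = 0.0362), or 1.25 times the control level. This call held in 3 of the 12 fits that left out 1 array, those without mimic replicate 1, control replicate 2 or control replicate 5. In the other 9 fits the log2 fold change was 0.29 to 0.33 and the adjusted p up to 0.0890. Other settings that lost it were an offset of 16, median centring, no filter on dim probes and the replicate number as a block.

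In the small subunit, MRPS35 and MRPS16 were lowered. MRPS35, a protein specific to mitochondria, measured 9.38 to 10.00 (median 9.63) in the mimic arrays and 10.18 to 10.76 (median 10.25) in the control arrays. Its groups did not overlap, although control replicate 6, at 10.76, stood above the other controls. The log2 fold change was -0.71 (SE 0.12, limma adjusted p = 0.00033), with a 95% confidence interval of -0.96 to -0.46, and the mimic arrays held 0.613 of the control level. Without control replicate 6 or any other single array it was -0.78 to -0.62.

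MRPS16, of the bacterial S16 family, measured 8.72 to 9.34 (median 9.14) in the mimic arrays and 9.20 to 9.96 (median 9.61) in the control arrays. In 3 of the 6 mimic arrays it was below the lowest control array and in 3 it lay within the control range. The log2 fold change was -0.52 (SE 0.13, limma adjusted p = 0.0154). Without mimic replicate 5, the lowest array, it was -0.45 (limma adjusted p = 0.0525).

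**Figure D2:**
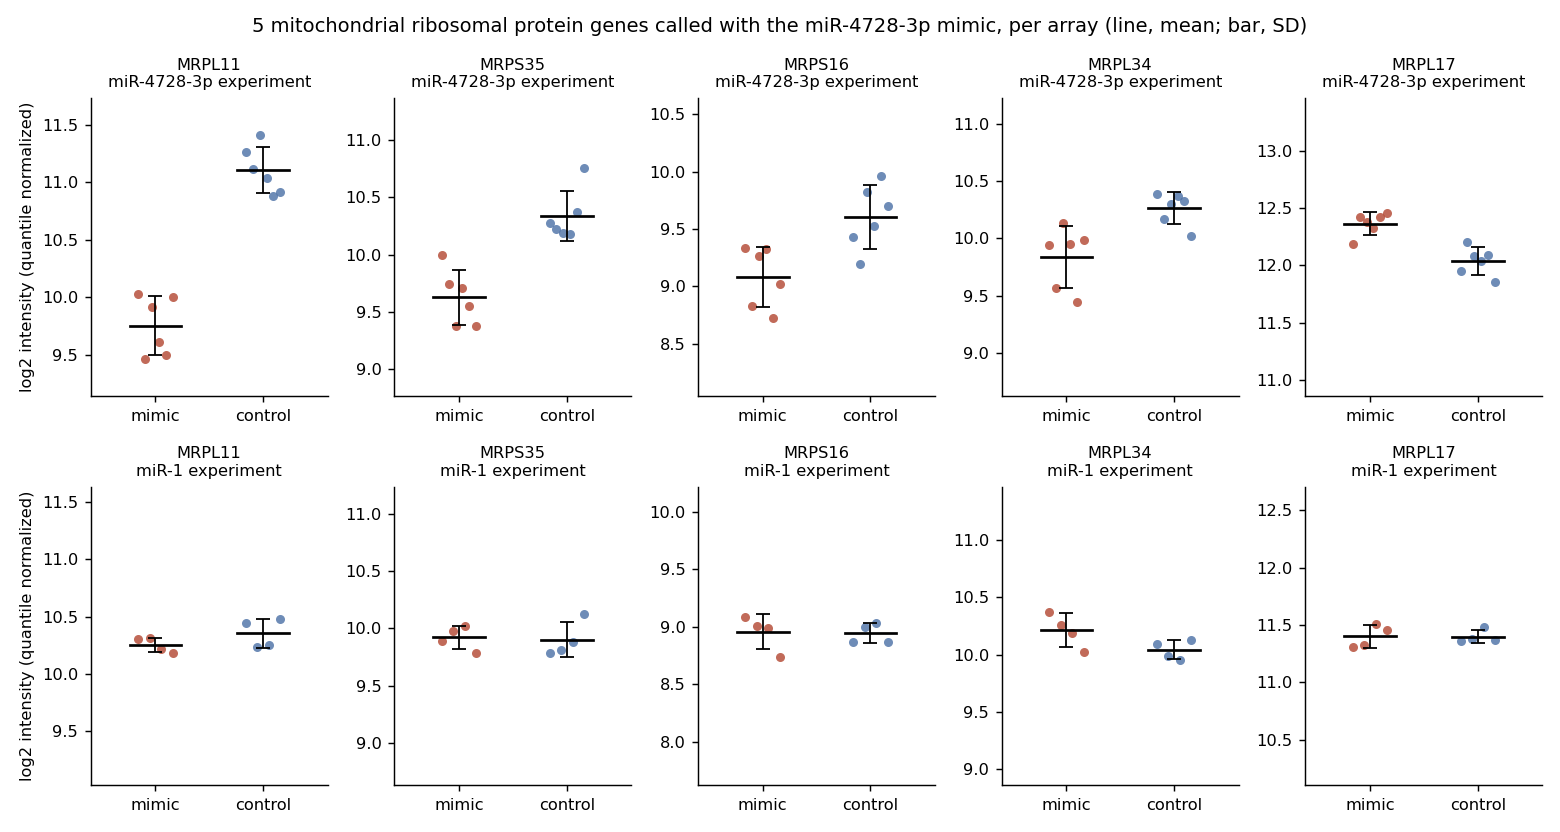
Log2 intensity of the 5 called members per array, with the miR-4728-3p experiment on top and the same genes in the miR-1 experiment below, mimic arrays left of control arrays, with the mean (line) and SD (bar). Every panel spans the same range of log2 units, and MRPL11 is shown by the probe that stood for it in that experiment. The mimic and control arrays were separate for MRPL11 and MRPS35 with miR-4728-3p and for none of the 5 with miR-1.

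The next members in size did not pass the test. MRPL52 and MRPL57, both specific to mitochondria and in the large subunit, had log2 fold changes of -0.29 (limma adjusted p = 0.0927) and -0.28 (limma adjusted p = 0.107). MRPL52 measured 9.83 to 10.18 (median 10.10) in the mimic arrays and 10.17 to 10.55 (median 10.32) in the control arrays, with 5 of 6 mimic arrays below every control. MRPL57 measured 7.68 to 7.93 (median 7.89) in the mimic arrays and 7.87 to 8.34 (median 8.21) in the control arrays, with 1 mimic array below every control. MRPL57 was called without control replicate 3, the lowest control, at a log2 fold change of -0.34 (limma adjusted p = 0.0469). These values are of its brightest probe, and its other tested probe had a log2 fold change of -0.06 over all arrays, not called.

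MRPS26, a mitochondria-specific protein of the small subunit, had separate groups without a call. It measured 10.97 to 11.12 (median 11.02) in the mimic arrays and 11.13 to 11.34 (median 11.18) in the control arrays, with the smallest spread between replicates of the family. Its log2 fold change was -0.17 (SE 0.09, limma adjusted p = 0.34).

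On the side of increases, MRPL40 had a log2 fold change of 0.24 (limma adjusted p = 0.247) and MRPS31 of 0.21 (limma adjusted p = 0.249), neither of them called. MRPL40 measured 10.26 to 10.75 (median 10.48) in the mimic arrays and 10.04 to 10.46 (median 10.23) in the control arrays. MRPS31 measured 10.38 to 10.64 (median 10.60) in the mimic arrays and 10.26 to 10.54 (median 10.32) in the control arrays. Both are specific to mitochondria, and their mimic and control arrays overlapped. MRPS33, MRPS17 and MRPL44 followed with values of 0.16 each, none called.

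Most of the family lay near 0. The log2 fold change was smaller than 0.25 in size in 70 of 77 members and smaller than 0.5 in 74. Its median over the members was -0.025, against -0.024 over all tested genes, and without MRPL11 it was -0.022. With arrays centred on their medians, the median of the members was 0.051 and that of all genes 0.025, so the sign of the family's median follows the scaling. Of the 77 members, 46 (59.7%) were below 0, against 56.1% of all tested genes. These shares and medians are near those of all genes.

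Most members without a call had a confidence interval inside a limit of 0.5 on either side of 0. Of the 72, the 95% confidence interval of the log2 fold change lay within -0.5 and 0.5 for 69. The exceptions were MRPS25 (-0.55 to 0.25), MRPS18C (-0.23 to 0.52) and MRPS33 (-0.17 to 0.50, passing 0.5 in the digits not shown), of which the first pair was picked out after its values were seen. The called changes of MRPL34 (-0.43) and MRPL17 (0.33) are smaller than this limit, so an interval within it does not by itself exclude a change of their size. Standard errors over the family were 0.09 to 0.19, with a median of 0.11, near the median of 0.11 over all tested genes.

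MRPS25, a mitochondria-specific protein of the small subunit, varied most between replicates of 1 group. It measured 7.38 to 8.88 (median 8.77) in the miR-4728-3p mimic arrays and 8.32 to 8.93 (median 8.66) in the control arrays. The low value came from mimic replicate 2, which lay 1.10 below the mean of its group. The residual SD of MRPS25 was 0.45, against a median of 0.17 over the members. In the miR-1 experiment the residual SD had a median of 0.11 and was highest in MRPL47, at 0.27.

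**Figure D3:**
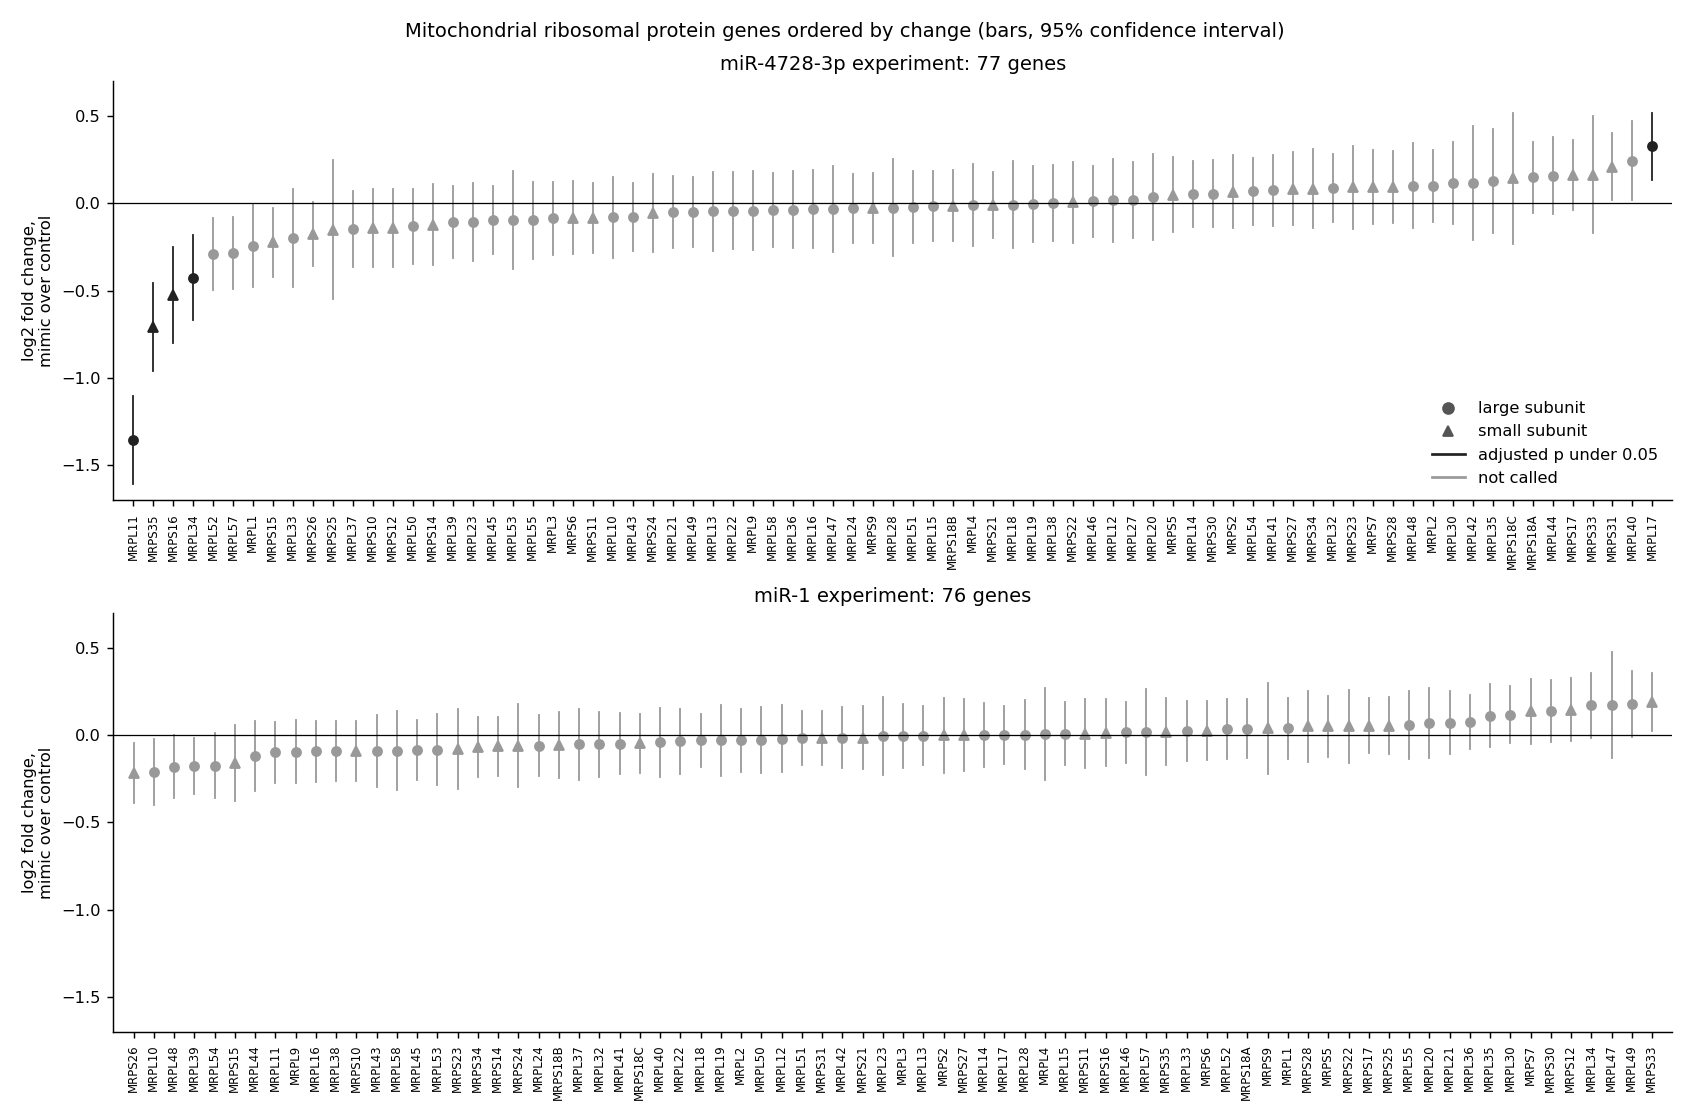
Log2 fold change (mimic over control) of every member with its 95% confidence interval, ordered by size, in the miR-4728-3p experiment (top, 77 genes) and the miR-1 experiment (bottom, 76 genes), with circles for the large and triangles for the small subunit and dark symbols for an adjusted p under 0.05. The 5 called genes stand at the ends of the upper panel, and no gene is called in the lower one.

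Neither subunit and neither origin held all the called members. In the large subunit 2 of 51 members were lower (MRPL11 and MRPL34) and 1 was higher, with a median log2 fold change of -0.028. In the small subunit 2 of 26 were lower (MRPS35 and MRPS16) and 0 higher, with a median of -0.011. Of the members with a bacterial family 3 of 48 were lower and 1 was higher (median -0.027), and of the mitochondria-specific members 1 of 29 was lower (median 0.0035). Over all tested genes 3.8% were called lower and 3.94% higher. Differences between these groups were not tested.

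Where a gene had several probes, their values mostly lay close together. Of the 23 members with several tested probes, all probes lay on the same side of 0 in 12 and on both sides in 11, and apart from MRPL11 none of these genes had a called probe. After MRPL11, MRPS11 had the widest gap, with log2 fold changes of -0.08 and 0.23 in the miR-4728-3p experiment, neither of them called.

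With the miR-1 mimic no member was called in either direction, against 1.24% of all tested genes called lower and 1.45% called higher by limma. Without adjustment, p was under 0.05 for 4 of the 76 members on the lower side and 1 on the higher side, against 8.35% and 7.19% of all tested genes. Every log2 fold change was smaller than 0.25 in size, and all 76 confidence intervals lay within -0.5 and 0.5. The median over the members was -0.0051 and over all tested genes -0.0052, and 42 of 76 (55.3%) were below 0, against 51.8% of all tested genes. The count of calls stayed at 0 under each of the 19 alternatives run for this experiment.

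MRPL11 itself showed little in the miR-1 experiment, where ILMN_1690371 was its brightest probe. That probe measured 10.30, 10.31, 10.21 and 10.19 in the 4 miR-1 mimic arrays and 10.44, 10.24, 10.25 and 10.48 in the 4 control arrays. The groups overlapped, and the log2 fold change was -0.10 (SE 0.08, limma adjusted p = 0.706), with a 95% confidence interval of -0.27 to 0.08. ILMN_2316540 had a log2 fold change of 0.03 and ILMN_1676458 of -0.14, neither called.

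With miR-1 the lowest log2 fold change of the family was that of MRPS26 and the highest that of MRPS33, both of the small subunit. MRPS26 measured 10.32, 10.05, 10.13 and 10.24 in the mimic arrays and 10.36, 10.41, 10.46 and 10.38 in the control arrays, a log2 fold change of -0.22 (SE 0.08, limma adjusted p = 0.244). MRPS33 measured 10.60, 10.65, 10.57 and 10.55 in the mimic arrays and 10.46, 10.45, 10.24 and 10.48 in the control arrays, a log2 fold change of 0.19 (SE 0.08, limma adjusted p = 0.321). Both had separate groups without a call. MRPL39 and MRPL54, mitochondria-specific proteins of the large subunit, also had every mimic array below every control array, with log2 fold changes of -0.18 each (limma adjusted p = 0.324 and 0.438). That made 3 members with the mimic arrays below, against 5.73% of all genes, and 1 with the mimic arrays above, against 5.02% of all genes.

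Other members at the ends of the miR-1 order were likewise not called. MRPL10, of the family that anchors the stalk of the large subunit, had a log2 fold change of -0.21 and MRPL48 of -0.18. MRPL49, MRPL47 and MRPL34 had values of 0.18, 0.17 and 0.17, MRPS12, of the bacterial S12 family at the decoding site, had 0.15, and MRPS30 had 0.14. MRPS15, of the bacterial S15 family, had -0.16 with miR-1 and -0.22 with miR-4728-3p (limma adjusted p = 0.583 and 0.225).

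The members called with miR-4728-3p had no like values with miR-1. MRPS35 measured 9.89, 9.98, 10.02 and 9.79 in the miR-1 mimic arrays and 9.79, 9.82, 9.88 and 10.12 in their controls, a log2 fold change of 0.02 (limma adjusted p = 0.963). MRPS16 had a log2 fold change of 0.01, MRPL17 of 0.00 and MRPL34 of 0.17 (limma adjusted p = 0.976, 0.997 and 0.449). The difference between the experiments was not tested, since the arrays differ and each experiment has its own controls. Of the 76 members tested in both, 26 were below 0 in both experiments, 14 were above 0 in both, 20 were below 0 with miR-4728-3p and above 0 with miR-1, and 16 were the other way round. No member was called in both, and the same probe stood for the gene in 72.

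Genes that work with the mitochondrial ribosome were taken from lists compiled for this comparison. With the miR-4728-3p mimic none of 16 mitochondrial translation factors passed the test (LRPPRC, which stabilizes mitochondrial mRNAs, had the smallest p, with a log2 fold change of -0.25 and a limma adjusted p of 0.335), and none did at an unadjusted p under 0.05. Of 29 genes for ribosome assembly and mitochondrial transcription none passed, with 1 lower at an unadjusted p under 0.05, YBEY (-0.26, limma adjusted p = 0.27), an endonuclease family member. Of 18 mitochondrial aminoacyl-tRNA synthetases, which charge the tRNAs, none passed and 3 were lower at an unadjusted p under 0.05, against 11.2% of all tested genes. These were LARS2 (-0.26), CARS2 (-0.31) and VARS2 (-0.25), with adjusted p of 0.159, 0.179 and 0.209. Of 3 tested mitoribosomal proteins with other names, DAP3, CHCHD1 and GADD45GIP1, none passed, also at an unadjusted p under 0.05.

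Among the respiratory chain genes, whose products join those made by the mitochondrial ribosome, 1 of 33 complex I genes rose. This was NDUFA9, a complex I subunit, at 11.44 ± 0.12 in the mimic arrays and 10.94 ± 0.10 in the control arrays (SD, n = 6 each), a log2 fold change of 0.50 (SE 0.09, limma adjusted p = 0.000866). None of 35 genes of complexes II to IV and ATP synthase passed, also at an unadjusted p under 0.05. Of 66 cytosolic ribosomal protein genes 1 fell, RPL37, with a log2 fold change of -0.38 (limma adjusted p = 0.0373). For all these lists, the shares over all tested genes were 3.8% called lower and 3.94% called higher. At an unadjusted p under 0.05 these shares were 11.2% and 8.1%. Medians of these lists were -0.071 for assembly and transcription, -0.036 for translation factors, -0.0047 for the synthetases, 0.031 for complex I, 0.033 for the other complexes and 0.006 for cytosolic ribosomal proteins, against -0.024 for all genes.

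With the miR-1 mimic none of the genes on these lists was called, against 1.24% of all tested genes called lower and 1.45% called higher. The smallest adjusted p values were those of MARS2 (0.32, limma adjusted p = 0.0569), a mitochondrial methionyl-tRNA synthetase, RPL29 (0.29, limma adjusted p = 0.0685), CARS2 (0.31, limma adjusted p = 0.0704) and NOA1 (-0.30, limma adjusted p = 0.0898), a GTPase for assembly of the small mitochondrial subunit. List medians were -0.041 to -0.0022, against -0.0052 for all genes. None of 16 tested interferon response genes was called with miR-1, and their median log2 fold change was 0.029. Of the 5 tested epithelial markers, KRT14 was higher with the miR-1 mimic, with a log2 fold change of 0.72 (limma adjusted p = 0.000218). The other 4 were not called, 2 of the 5 were below 0, and the median of the 5 was 0.026.

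**Figure D4:**
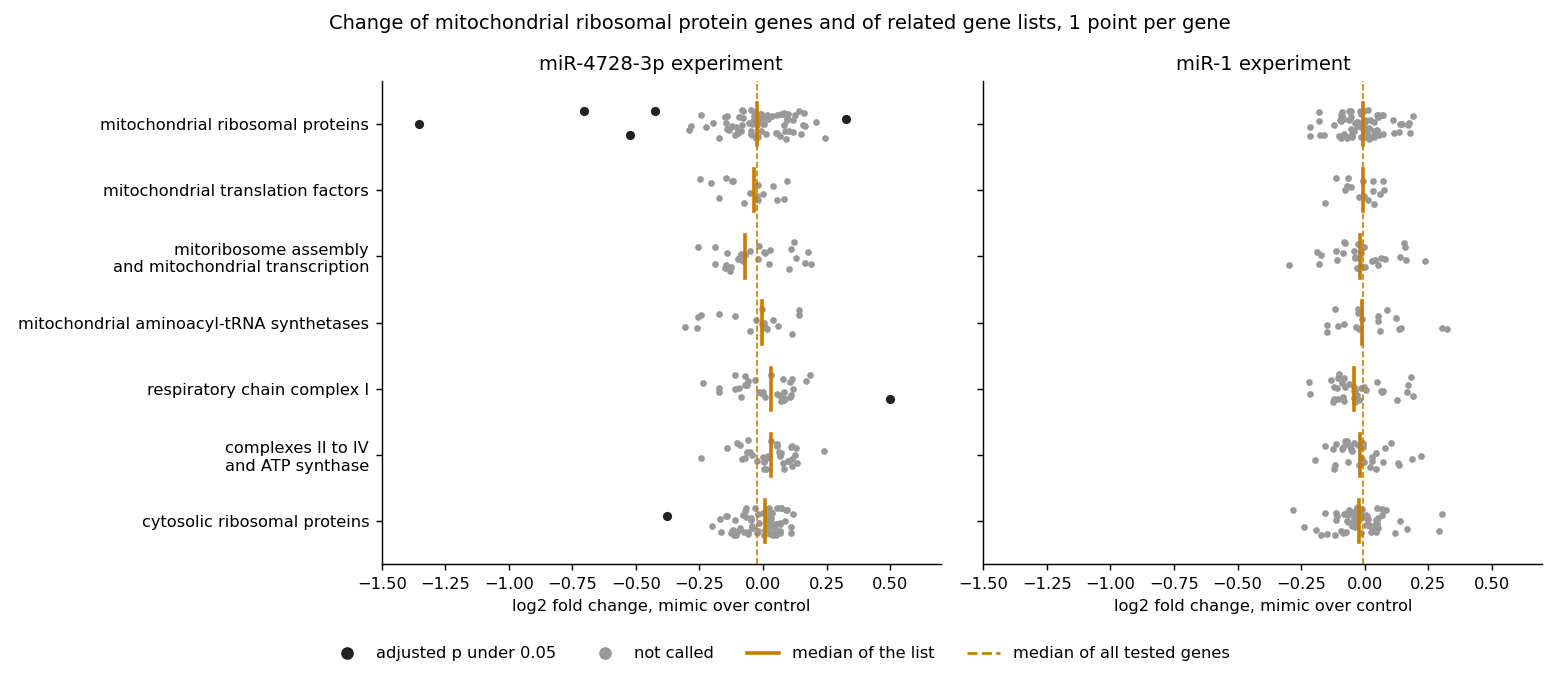
Log2 fold change (mimic over control) of each tested gene of the mitochondrial ribosomal proteins and of 6 related lists, with the miR-4728-3p experiment on the left and the miR-1 experiment on the right, dark points for an adjusted p under 0.05, a bar at the list's median and a dashed line at the median of all tested genes. MRPL11, at -1.35, lies farthest from 0 of all genes shown, and the medians of the lists stay between -0.071 and 0.033.

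Promoter sequences were not used by the rule. RefSeq promoters (GRCh38.p14), from 250 bases before to 50 after the start, were held for 69 members and compared with 15843 protein-coding genes. The word CCGGAAG, a core of ETS-family sites, occurred on either strand in 42.0% of the members' promoters and 14.2% of all. ATGGCGG, a core of YY1 sites, occurred in 34.8% and 7.63%, and CGCANGCG, a form of the NRF1 site, in 18.8% and 14.3%. The words can share bases at their ends, a match is a description of the sequence, and the difference between these shares was not tested. The 15843 genes were not limited to those expressed in these cells, nor matched in base composition. Whether other expressed genes have like shares was not examined. Among the called members, MRPS16 had the ETS word, MRPS35 the YY1 word and MRPL17 the NRF1 word, and these words did not occur in the windows of MRPL11 and MRPL34.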

How the data were processed

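Deposited, per experiment, were signal intensities per probe before normalization and linear intensities that the authors had normalized on the BASE server by a method not given in the sources used here. Detection p-values and control probes are not in these tables. The intensities before normalization were corrected with normexp (offset 50), quantile normalized within an experiment and put on the log2 scale. The authors deposited no log2 values. Probes whose mean exceeded the overall median were kept and tested with limma 3.58.1 (lmFit, eBayes) in R 4.3.3, without a replicate block, with Benjamini-Hochberg adjustment over all tested probes. Probes were named by the platform annotation, with symbols brought up to date from RefSeq's gene table by gene identifier. Of the probes, 27578 (miR-4728-3p) and 30113 (miR-1) had 1 name, 13 and 8 had several and were given none, and 21212 and 17202 had none. KGD4, once named MRPS36, is not a member. The limma step was tested on simulated data.

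The members, lists and tests were chosen with earlier results of these data known. Named members are MRPL11, every called member, the 6 largest decreases and increases of each experiment, members whose probes disagree with a call, and up to 3 genes with the smallest p of each other list. MRPS18C, MRPS25 and MRPS11 were named after their values were seen. Alternatives were no background correction (1 added before the log), an offset of 16, the authors' values, median centring, no filter, a filter at the 75th percentile, array weights, the replicate number as a block, trended robust eBayes, the mean of a gene's probes, platform symbols, and leaving out each array. The number of arrays limits precision: exact permutation p-values could not go below 0.00216 with 6 against 6 arrays or 0.0286 with 4 against 4, and no such p is given. P-values set the difference between mimic and control against the spread between these samples, which may be technical. Figures were drawn with matplotlib 3.10.9 in Python 3.11.15.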

Additional observations from a re-analysis of the deposited data

Results flagged for a closer look

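In 6 of the 90 groups of arrays checked for the named members and for MRPS25, 1 array lay far from the others of its group, and chance marks about 1 group in 20, or 4.5 here. In the miR-4728-3p experiment MRPL57 was at 7.68 in mimic replicate 5 (others 7.87 to 7.93) and MRPS15 at 11.30 in mimic replicate 5 (others 11.47 to 11.56). MRPS35 was at 10.76 in control replicate 6 (others 10.18 to 10.37) and MRPS31 at 10.54 in control replicate 4 (others 10.26 to 10.32). In the miR-1 experiment MRPL40 was at 9.50 in mimic replicate 4 (others 9.62 to 9.63) and MRPS33 at 10.24 in control replicate 3 (others 10.45 to 10.48). Of these genes MRPS35 alone was called, and its call held without control replicate 6.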

How the results depend on the processing

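MRPL11 and MRPS35 were called in all 23 alternatives of the miR-4728-3p experiment, with log2 fold changes of -1.41 to -0.92 and -0.78 to -0.62. MRPS16 was called in 22 (not without mimic replicate 5), MRPL34 in 15 and MRPL17 in 10. The alternative with platform symbols gave the same counts as the main fit in both experiments, so it is no separate check of these calls. The count of lowered members was 2 to 4 when 1 array was left out, lowest without mimic replicate 5. It was 5 without background correction and with the authors' values, where MRPL52 joined (limma adjusted p = 0.0442 and 0.0447). Over all genes these settings gave nearly the same counts (531 and 528 lower, 493 and 492 higher). They are therefore not taken as separate checks of each other. The count of raised members was 0 with an offset of 16, with median centring, with no filter and with the replicate block, and 0 to 1 when 1 array was left out. With median centring the median of the members was 0.051. No result changed its direction while called.

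Replicate numbers are shared between mimic and control arrays. Deviations of same-numbered arrays correlated at -0.12 to 0.06 in the miR-4728-3p experiment and -0.39 to 0.04 in the miR-1 experiment, no array correlated best with its own number, and the numbers were not taken as pairs. With the replicate block 4 members were lower and 0 higher in the miR-4728-3p experiment (MRPL17, limma adjusted p = 0.0777) and 0 were called in the miR-1 experiment, where 37 genes were lower and 67 higher over all genes.

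Over all genes, the miR-1 counts were also 83 lower and 99 higher with an offset of 16, and 75 to 93 lower and 91 to 114 higher without mimic replicate 3 or control replicate 1, 3 or 4. Probes near background limit what can be seen. Whether this applies to the dim MRPL11 probe was not tested.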
